A study of Homo sapiens with 36 samples.

Results

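The 9 genes described here, DUSP1, DUSP2, DUSP4, DUSP5, DUSP6, DUSP7, DUSP8, DUSP10 and DUSP16, encode dual-specificity phosphatases of the mitogen-activated protein (MAP) kinases. They were taken from the 57500 gene rows of the count files by symbol, and all 9 were among the 17720 genes that passed the filter on low counts. RNA had been sequenced from THP-1 cells, a human monocytic leukaemia line, transduced with lentivirus for a non-target hairpin (shNT, a short hairpin RNA) or a hairpin against NR4A2 (shNR4A2) or NR4A3 (shNR4A3), both nuclear receptor genes. Cells of each line were held in buffered medium at 5% or 10% CO2 for 4 h, without LPS or with LPS (2.5 µg/mL) for the last 2 h, which gave 12 conditions of 3 libraries each. LPS, a bacterial cell wall lipid, activates Toll-like receptor 4, and 10% CO2 models hypercapnia. The labels name 1 line per hairpin, so the hairpin and the line cannot be told apart. The replicates are described by the study as individual experiments.

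MAP kinases (ERK, JNK and p38) are switched on by phosphorylation of a threonine and a tyrosine in their activation loop, and these phosphatases remove both phosphates. Several are themselves transcribed in response to MAP kinase activity and so act as feedback brakes on the pathway. By place and substrate they fall into inducible nuclear enzymes (DUSP1, DUSP2, DUSP4, DUSP5), cytoplasmic ERK phosphatases (DUSP6, DUSP7) and enzymes that prefer JNK and p38 (DUSP8, DUSP10, DUSP16). In macrophages DUSP1 is known as a brake on p38 and on inflammatory cytokine production after LPS.

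The genes lie on 8 chromosomes in the GRCh38 coordinates of the count files, and counts were taken over the exons that those files list for each. The nuclear group holds DUSP1 (ENSG00000120129, chr5:172768090-172771195), DUSP2 (ENSG00000158050, chr2:96143166-96145440), DUSP4 (ENSG00000120875, chr8:29333064-29350668) and DUSP5 (ENSG00000138166, chr10:110497838-110511544). The cytoplasmic group holds DUSP6 (ENSG00000139318, chr12:89347232-89353271) and DUSP7 (ENSG00000164086, chr3:52048919-52056550). The JNK and p38 group holds DUSP8 (ENSG00000184545, chr11:1554044-1571920), DUSP10 (ENSG00000143507, chr1:221701424-221742176) and DUSP16 (ENSG00000111266, chr12:12474210-12562383). DUSP5 is on the plus strand and the other 8 are on the minus strand.

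The libraries held 16171161 to 23929138 counts, with a median of 19639071. Of 8 monocytic markers, all were detected, from CD14 at 3.5 to 12.7 RPKM (counts divided by gene length and by library size, with TMM scaling, as a mean per condition) to LYZ at 46.1 to 244 RPKM. The 10 markers of B, T, epithelial and erythroid cells reported here stayed under 1 RPKM in every condition, with CD79A the highest at 0.254 to 0.961 RPKM, and MS4A1, CD3E, CD2, HBB and HBA1 were at 0 in at least 1 condition. NR4A2 was lower in shNR4A2 than in shNT cells in all 4 states (log2 fold change -1.67 to -0.91, adjusted p 3.28e-07 to 0.0337). NR4A3 was lower in shNR4A3 cells in 3 of 4 states, but in the state of 10% CO2 without LPS its log2 fold change was -0.39 (SE 0.49, adjusted p = 0.735), so that the knockdown was not detectable there. NR4A3 lay at 0.0704 RPKM in shNT cells in that state. The receptor not targeted also differed at 10% CO2 with LPS. There NR4A3 was higher in shNR4A2 cells (0.567, adjusted p = 0.00295) and NR4A2 lower in shNR4A3 cells (-0.323, adjusted p = 0.0166). In the other states it was not called in either line.

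The promoters of 5 genes are shown because 4 of them rose and 1 fell with LPS in all 6 comparisons. The 250 bases before the RefSeq start site (GRCh38.p14) are given 5′ to 3′ on the strand of the gene. Capitals mark the cAMP response element TGACGTCA and its shorter form TGACG, or CGTCA on the opposite strand. DUSP1 and DUSP8 are the 2 of 7 members with an entry whose window holds the full element, and the other 5, DUSP2, DUSP16 and DUSP7 among them, hold neither form. The RefSeq starts of DUSP7, DUSP8 and DUSP16 lie upstream of the gene ends in the count files.
DUSP1 (chr5:172771196-172771445, minus strand): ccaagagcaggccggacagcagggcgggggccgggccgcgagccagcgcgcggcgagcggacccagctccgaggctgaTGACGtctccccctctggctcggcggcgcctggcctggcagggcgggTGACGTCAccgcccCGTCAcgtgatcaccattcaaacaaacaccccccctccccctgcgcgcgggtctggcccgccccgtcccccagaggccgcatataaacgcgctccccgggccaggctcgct
DUSP8 (chr11:1572272-1572521, minus strand): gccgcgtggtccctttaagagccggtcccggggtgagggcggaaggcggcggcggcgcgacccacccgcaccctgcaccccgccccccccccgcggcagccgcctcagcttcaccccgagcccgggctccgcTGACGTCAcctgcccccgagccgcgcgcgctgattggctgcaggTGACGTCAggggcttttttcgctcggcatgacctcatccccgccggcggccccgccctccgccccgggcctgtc
DUSP16 (chr12:12562864-12563113, minus strand): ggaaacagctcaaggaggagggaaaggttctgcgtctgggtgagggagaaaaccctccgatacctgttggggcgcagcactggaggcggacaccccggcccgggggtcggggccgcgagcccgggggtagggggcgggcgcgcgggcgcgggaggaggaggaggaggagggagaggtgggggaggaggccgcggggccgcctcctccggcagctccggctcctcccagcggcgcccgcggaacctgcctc
DUSP2 (chr2:96145441-96145690, minus strand): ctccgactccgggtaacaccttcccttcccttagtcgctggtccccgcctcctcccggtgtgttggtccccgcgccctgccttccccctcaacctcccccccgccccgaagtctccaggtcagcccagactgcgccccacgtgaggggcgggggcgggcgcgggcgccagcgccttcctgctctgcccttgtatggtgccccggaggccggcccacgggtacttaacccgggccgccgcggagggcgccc
DUSP7 (chr3:52056572-52056821, minus strand): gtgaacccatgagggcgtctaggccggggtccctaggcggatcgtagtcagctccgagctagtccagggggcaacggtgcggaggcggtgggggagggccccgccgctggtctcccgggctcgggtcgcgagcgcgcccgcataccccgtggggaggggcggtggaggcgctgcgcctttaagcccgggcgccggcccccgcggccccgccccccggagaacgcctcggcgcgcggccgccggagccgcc
The full element begins 125 bases before the start in DUSP1 and 118 and 74 bases before it in DUSP8. It occurs on either strand in 578 of 35116 RefSeq promoter windows of this length (1.65%), and the shorter form, which the full element contains, in 21.2%. The NR4A monomer site AAAGGTCA is in 1.05% of windows and was in 0 of the 7 searched. The AP-1 site TGANTCA (6.57% of windows) and the ETS site CCGGAAG (8.52%) were also in 0 of 7. The EGR site GCGNGGGCG (8.41%) was found in DUSP2 and DUSP16 and the E-box CACGTG (6.34%) in DUSP1 and DUSP2. The NF-kB site GGGRNNYYCC (9.96%) was in 1 of 7, DUSP7, on the opposite strand. The sequence TATAAA (10.7%) was in 1 of 7, DUSP1, and the CArG box CCWWWWWWGG (1.16%) in 0 of 7. These are matches of letters in a fixed window and not measured binding.

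Before LPS, DUSP7 and DUSP6 had the highest levels. In shNT cells at 5% CO2, DUSP7 mRNA was at 16.2, 17.7 and 14.8 RPKM in the 3 libraries and DUSP6 at 14.9, 10.6 and 10.1 RPKM, which overlapped. DUSP10 followed at 7.76, 6.41 and 6.54 RPKM, and its libraries did not overlap with those of either. DUSP2 (4.39 ± 0.45, mean ± SD, n = 3), DUSP5 (2.2 ± 0.195) and DUSP4 (1.87 ± 0.609) came next, and the libraries of DUSP5 and DUSP4 overlapped. DUSP1 (1.41 ± 0.441), DUSP16 (1.2 ± 0.205) and DUSP8 (0.855 ± 0.238) were lowest and overlapped with each other. After LPS at 5% CO2 the order in shNT cells was led by DUSP8 (19.1 ± 3.22), DUSP10 (16.1 ± 2.35), DUSP1 (13.3 ± 3.73) and DUSP16 (10.7 ± 1.73), each overlapping with its neighbour in the order, while DUSP7 was at 7.46 ± 0.567.

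**Figure D1:**
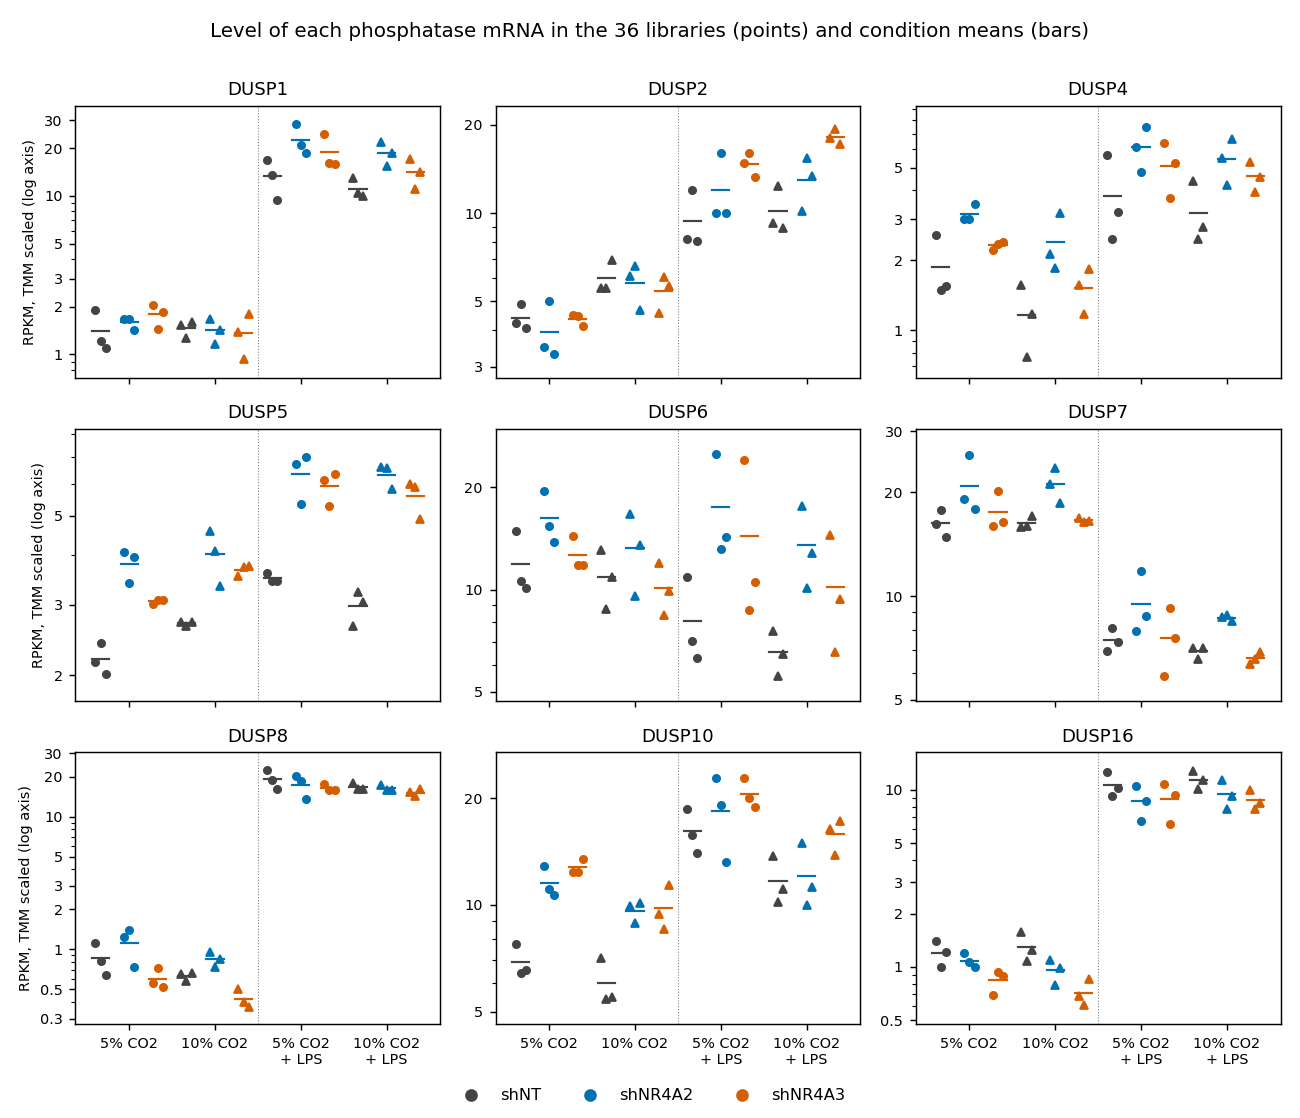
RPKM (TMM scaled, log axis) of the 9 genes in each of the 36 libraries, by CO2 and LPS (x axis, circles 5% and triangles 10% CO2) and line (colour), with bars at the means of 3 libraries. DUSP1, DUSP8 and DUSP16 are separated with no overlap by LPS in every line, and DUSP7 is separated in the opposite direction.

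LPS changed most of the family within 2 h. Over the 6 comparisons of LPS with no LPS (3 lines, each at 5% and 10% CO2), 46 of 54 tests of a member were called at an adjusted p under 0.05 with edgeR, 39 of them higher and 7 lower. In shNT cells at 5% CO2 6 members were higher and 1 lower, where 22.9% of all genes tested were called (11.2% higher and 11.6% lower). The members' median log2 fold change there was 1.11 against -0.001 over all genes. In shNT cells at 10% CO2 6 were higher and 2 lower (31.2% of all genes called, 15.1% higher and 16.1% lower). In shNR4A2 cells 7 were higher and 1 lower at 5% CO2 (18.2%, 8.91% and 9.26%) and 6 and 1 at 10% CO2 (35%, 16.5% and 18.5%). In shNR4A3 cells 7 were higher and 1 lower at 5% CO2 (25.3%, 11.9% and 13.4%) and likewise at 10% CO2 (42.1%, 20.6% and 21.5%). The 3 libraries with LPS did not overlap with the 3 without for 7 and 8 members in shNT cells at 5% and 10% CO2 (37.7% and 44.5% of all genes), 8 and 7 in shNR4A2 cells (34.7% and 47.1%) and 8 and 8 in shNR4A3 cells (40.7% and 52%). Fewer cells of a kind and less RNA per cell cannot be told apart in such bulk samples.

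Of the JNK and p38 phosphatases, DUSP8 rose most. In shNT cells at 5% CO2 it was at 1.11, 0.818 and 0.638 RPKM without LPS and at 22.5, 18.8 and 16.1 RPKM with LPS. All 3 libraries with LPS lay above all 3 without, as in each of the other 5 comparisons. The rise was 22.4-fold (log2 fold change 4.48, SE 0.18, adjusted p = 2.64e-09), and it ran from 15.6-fold in shNR4A2 cells at 5% CO2 to 36.8-fold in shNR4A3 cells at 10% CO2. The 6 condition means with LPS lay between 15.2 and 19.1 RPKM, and the 6 without LPS between 0.421 and 1.12 RPKM. DUSP8 had only 37 to 145 counts per library without LPS, and the related sequence DUSP8P5 had 48 to 161 there and 69 to 165 with LPS, so that the low levels of DUSP8 are uncertain where reads fit both sequences.

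DUSP16, which binds JNK and p38, was at 1.4, 0.995 and 1.21 RPKM without LPS and at 12.6, 9.24 and 10.2 RPKM with LPS in shNT cells at 5% CO2. The groups were apart in every comparison, with rises of 7.9-fold to 12.4-fold (adjusted p 1.32e-11 to 6.47e-07). DUSP10 started higher and rose less. It went from 7.76, 6.41 and 6.54 RPKM to 18.6, 15.8 and 14 RPKM in shNT cells at 5% CO2 (2.35-fold, adjusted p = 9.3e-07). It was called in 5 of 6 comparisons and was at 1.26-fold in shNR4A2 cells at 10% CO2 (adjusted p = 0.0747), where its libraries overlapped. In shNR4A2 cells at 5% CO2 the call (log2 fold change 0.66, adjusted p = 0.0158) was lost without replicate 1 with LPS (0.49, adjusted p = 0.0932), replicate 2 without LPS (0.63, 0.0769) or replicate 3 without LPS (0.62, 0.0616).

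Among the nuclear phosphatases DUSP1 rose most. It was at 1.91, 1.22 and 1.09 RPKM without LPS and at 16.9, 13.6 and 9.42 RPKM with LPS in shNT cells at 5% CO2, a rise of 9.41-fold (log2 fold change 3.23, SE 0.26, adjusted p = 7.34e-06). Over the 6 comparisons its rise was 7.57-fold to 14.2-fold, with no overlap in any. DUSP2, a nuclear ERK and p38 phosphatase of blood cells, went from 4.23, 4.9 and 4.05 RPKM to 8.17, 12 and 8.03 RPKM in the same cells and was called in all 6 comparisons, from 1.7-fold in shNT cells at 10% CO2 to 3.38-fold in shNR4A3 cells at 10% CO2.

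DUSP4 and DUSP5 were each called in 5 of 6. DUSP4, a nuclear relative of DUSP1, was at 2.57, 1.49 and 1.55 RPKM without LPS and at 5.7, 2.47 and 3.22 RPKM with LPS in shNT cells at 5% CO2, where replicate 1 was the highest of both groups and the groups overlapped (log2 fold change 1.02, SE 0.39, adjusted p = 0.138). The fit of all 36 libraries called DUSP4 there (1.015, adjusted p = 0.0151). Elsewhere its log2 fold change was 0.95 to 1.62, and at 10% CO2 in shNT cells the call rested on replicate 3 without LPS (1.46, adjusted p = 0.0595 when left out, against 0.0051). DUSP5, a nuclear ERK phosphatase, was at 2.16, 2.41 and 2.02 RPKM without LPS and at 3.6, 3.44 and 3.43 RPKM with it in shNT cells at 5% CO2 (1.6-fold, adjusted p = 0.00293). In shNT cells at 10% CO2 it was at 2.72, 2.66 and 2.71 RPKM without and 2.65, 3.22 and 3.04 RPKM with LPS, which overlapped (log2 fold change 0.15, SE 0.15, adjusted p = 0.492).

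Neither cytoplasmic ERK phosphatase was called higher. DUSP7 fell in all 6 comparisons, with no overlap in any, to between 0.404-fold and 0.462-fold of its level without LPS. In shNT cells at 5% CO2 it was at 6.95, 8.07 and 7.34 RPKM with LPS, below each of the 3 values without it given above (log2 fold change -1.11, SE 0.10, adjusted p = 2.14e-07). DUSP6 was called lower in shNT cells at 10% CO2 only, from 13.1, 8.74 and 10.9 RPKM to 7.56, 5.57 and 6.48 RPKM (log2 fold change -0.73, SE 0.14, adjusted p = 0.000916), and this call was lost in 1 fit of all 36 libraries (-0.74, adjusted p = 0.102). At 5% CO2 in shNT cells it was at 10.9, 7.05 and 6.3 RPKM with LPS (-0.55, adjusted p = 0.164), and this passed the threshold without the replicate 1 library with LPS (-0.82, adjusted p = 0.00116). In shNR4A2 and shNR4A3 cells its log2 fold change was 0.03 to 0.18 with adjusted p of 0.773 to 0.961. Scaled by library size alone, those 4 values were -0.23 to -0.03, so that their sign depends on the scaling.

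**Figure D2:**
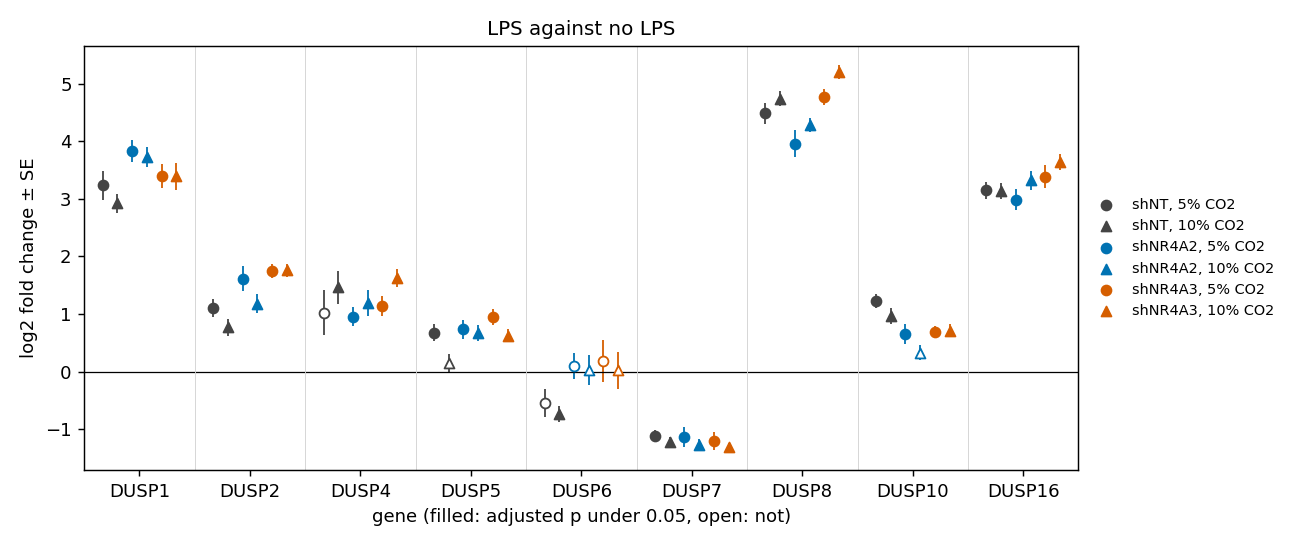
Log2 fold change of LPS against no LPS (y axis, bars are SE from edgeR) of the 9 genes in 3 lines (colour) at 5% (circles) and 10% CO2 (triangles), filled where the adjusted p was under 0.05. DUSP8, DUSP1 and DUSP16 lie between 2.92 and 5.20, DUSP7 lies between -1.31 and -1.11, and DUSP6 lies at -0.73 to 0.18.

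Scaling matters to the size of these values. TMM factors were 1.05 to 1.13 without LPS and 0.881 to 0.967 with it. With library size alone the median log2 fold change of all genes moved to between -0.25 and -0.18, and the share of called genes that were higher went from 47% to 49.2% down to 22% to 24.3%. Of the called members, DUSP10 in shNR4A2 cells at 5% CO2 lost its call under that scaling (log2 fold change 0.44, adjusted p = 0.0733) and DUSP6 in shNT cells at 5% CO2 gained one (-0.72, adjusted p = 0.0436).

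The rest of the pathway was read in shNT cells at 5% CO2 from lists of related genes, to be set against the 22.9% of all genes called there (11.2% higher and 11.6% lower). Of 14 early and target genes of ERK, 12 rose and 1 fell, among them EGR2 (109-fold), IER3 (57.9-fold) and EGR3 (30.6-fold), with a median log2 fold change of 2.30. The other lists had between 0 of 4 and 3 of 7 genes called, and nothing is read from those counts. Of 10 tested atypical dual-specificity phosphatases, which lack the kinase-binding domain of the 9, 1 was called, DUSP14, which fell to 0.619-fold. Of 9 tested MAP kinases, MAPK8 (JNK1) rose 1.25-fold and MAPK14 (p38α) and MAPK7 (ERK5) fell to 0.684-fold and 0.796-fold. Of 7 kinases that phosphorylate MAP kinases, MAP2K3, an activator of p38, rose 1.52-fold. Of 13 kinases above those, MAP3K8 (TPL2, the kinase that links Toll-like receptors to ERK) rose 10.6-fold, MAP3K4 rose 1.54-fold and MAP3K1 fell to 0.353-fold. Of 10 kinases downstream, RPS6KA4 and RPS6KA1 fell to 0.799-fold and 0.819-fold. Of 7 Sprouty and SPRED genes, another set of inhibitors of ERK signalling, SPRY1 and SPRED2 rose 6.73-fold and 1.57-fold and SPRY2 fell to 0.485-fold. Of 4 tested tyrosine or serine/threonine phosphatases of MAP kinases, 0 were called with edgeR and 0 had an unadjusted p under 0.05.

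DUSP2 differed between lines in its response to LPS. Averaged over 5% and 10% CO2 and tested as an interaction in 24 libraries, its log2 fold change was larger by 0.82 in shNR4A3 than in shNT cells (SE 0.15, adjusted p = 0.00944), where 0.547% of all genes were called and 0.406% were called higher. With LPS it was at 14.8, 16 and 13.3 RPKM in shNR4A3 cells at 5% CO2 and at 18.1, 19.3 and 17.2 RPKM at 10% CO2, against 8.17, 12 and 8.03 RPKM and 9.27, 12.4 and 8.92 RPKM in shNT cells. The shNR4A3 libraries with LPS were all above the shNT libraries, and those without LPS overlapped. The call was kept with each of the 24 libraries left out in turn. For shNR4A2 cells the difference in DUSP2 was 0.46 (SE 0.21, adjusted p = 0.951).

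DUSP2 was the 1 member called of 9 in this test by edgeR and by DESeq2, with 5 at an unadjusted p under 0.05. In shNR4A2 against shNT cells 0 of 9 did by edgeR or DESeq2, with 6 at an unadjusted p under 0.05 and 0.226% of all genes called. The largest of these were DUSP6 at 0.71 (SE 0.28, adjusted p = 0.808), DUSP1 at 0.70 (SE 0.22, adjusted p = 0.418) and DUSP10 at -0.60 (SE 0.17, adjusted p = 0.282).

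CO2 moved the family far less than LPS. Within single lines, comparing 10% with 5% CO2 in 3 against 3 libraries, 1 of 54 tests was called. It was DUSP10 in shNT cells with LPS, at 13.7, 10.2 and 11.1 RPKM at 10% CO2 against 18.6, 15.8 and 14 RPKM at 5% CO2, with no overlap (log2 fold change -0.46, SE 0.13, adjusted p = 0.0442), where 8.19% of all genes were called. Of all genes called there 54.5% were higher, and 39.2% when scaled by library size alone. The DUSP10 call was lost without replicate 1 (-0.35, adjusted p = 0.148) or 2 (-0.48, 0.106) at 5% CO2 and without replicate 2 (-0.38, 0.161) or 3 (-0.43, 0.141) at 10% CO2, and in 1 fit of all 36 libraries (-0.465, 0.0677). In the other 5 comparisons edgeR called 0 of 9 and DESeq2 0 or 1, and 1 to 5 members had an unadjusted p under 0.05. The share of all genes called was 0.615% in shNT cells without LPS, 0.0113% and 0.198% in shNR4A2 cells without and with LPS, and 1.13% and 2.13% in shNR4A3 cells. Groups did not overlap for 2 members in shNT cells without LPS (19.9% of all genes) and 2 with LPS (29.9%), for 1 and 0 in shNR4A2 cells (13.8% and 21.4%), and for 5 and 2 in shNR4A3 cells (22.2% and 25.1%). In shNR4A2 cells without LPS, where the replicate numbers paired the libraries, DUSP2 was called with the replicate number as a block (0.56, adjusted p = 0.0419). The block called 361 of the 17720 genes there, against 2 without it. The fit of all 36 libraries called DUSP10 lower in shNR4A2 cells with LPS (log2 fold change -0.61, adjusted p = 0.0208), with 1009 genes called. DESeq2 called DUSP10 lower in shNR4A3 cells with LPS (-0.38, 0.0489), with 885 genes called. It also called DUSP4 lower in shNR4A3 cells without LPS (-0.61, 0.0169), with 550 genes called.

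Averaging the CO2 effect over the 3 lines in all 36 libraries gave more calls. Without LPS 5 of 9 members were called, 2 higher and 3 lower, where 17.4% of all genes were called (8.67% higher and 8.72% lower), and the members' median log2 fold change was -0.17 against -0.01 over all genes. DUSP2 was higher at 10% CO2 (log2 fold change 0.45, SE 0.11, adjusted p = 0.00569). It was at 5.56, 5.55 and 6.9 RPKM in shNT cells at 10% CO2 against 4.23, 4.9 and 4.05 RPKM at 5%, with no overlap, and its sign was the same in the other lines. DUSP8 was lower at 10% CO2 (-0.46, SE 0.13, adjusted p = 0.0108), at 0.648, 0.578 and 0.658 RPKM against 1.11, 0.818 and 0.638 RPKM in shNT cells, where the groups overlapped. Both calls held with each library left out in turn.

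The other 3 calls without LPS were weaker. DUSP4 was lower (-0.57, SE 0.18, adjusted p = 0.0295), and this was lost with any of 5 of the 36 libraries left out (smallest value -0.46 without the shNT 5% CO2 replicate 1 library, adjusted p = 0.0867) and with no filter (-0.56, 0.101). DUSP10 was lower (-0.28, SE 0.09, adjusted p = 0.0329), which was lost with any of 8 libraries left out (-0.25 without the shNT 5% CO2 replicate 1 library, adjusted p = 0.081). DUSP5 was higher (0.21, SE 0.07, adjusted p = 0.0428), which was lost with any of 13 left out (0.17 without the shNR4A2 10% CO2 replicate 1 library, adjusted p = 0.106) and with no filter (0.22, 0.193).

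With LPS 2 of 9 members were called, both lower at 10% CO2, where 29.3% of all genes were called and 15.3% were called lower. DUSP10 was lower (log2 fold change -0.48, SE 0.09, adjusted p = 0.000151), with the same sign in every line, and the call held with each library left out. In shNR4A2 cells it was at 15, 10 and 11.2 RPKM at 10% CO2 against 22.8, 19.2 and 13.2 RPKM, which overlapped, and in shNR4A3 cells at 16.4, 13.8 and 17.3 RPKM against 22.8, 20.1 and 18.9 RPKM, which did not. DUSP1 was lower (-0.32, SE 0.12, adjusted p = 0.0446), at 12.9, 10.5 and 9.94 RPKM against 16.9, 13.6 and 9.42 RPKM in shNT cells, with overlap. This call was lost with any of 13 libraries left out (-0.24 without the shNR4A3 5% CO2 + LPS replicate 1 library, adjusted p = 0.126), with RLE size factors (adjusted p = 0.0542) and with DESeq2 (0.0594).

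The CO2 effect was not shown to differ with LPS or between lines for any member. In the test of CO2 by LPS over all lines edgeR and DESeq2 called 0 of 9, with 2 at an unadjusted p under 0.05 and 1.99% of all genes called. DUSP5 came closest, at -0.32 (SE 0.10, adjusted p = 0.0977). In the 4 tests of CO2 by line edgeR and DESeq2 called 0 of 9 members, 0 at an unadjusted p under 0.05, and 0 of all genes (0%), with 192 to 458 genes at an unadjusted p under 0.05. With 12 libraries these tests had little reach, since in simulated data 4% of genes changed 1.5-fold and 56% of those changed 2-fold were recovered in shNR4A2 cells without LPS.

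**Figure D3:**
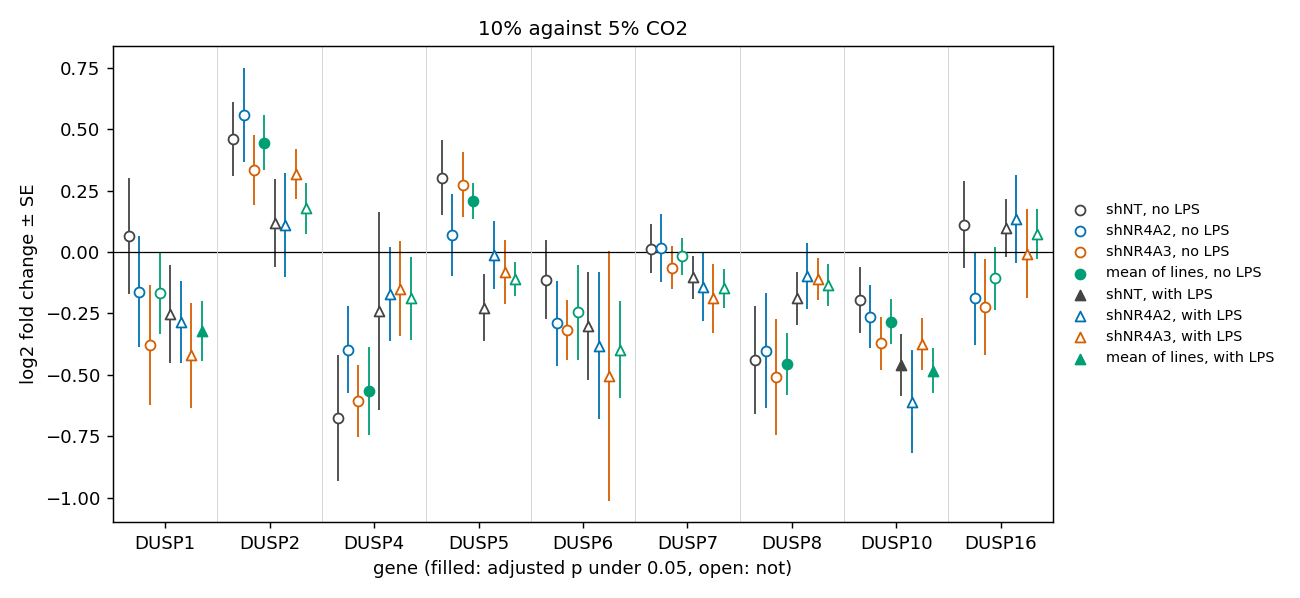
Log2 fold change of 10% against 5% CO2 (y axis, bars are SE from edgeR) of the 9 genes without (circles) and with LPS (triangles), in each line and averaged over lines (green), filled where the adjusted p was under 0.05. DUSP10, DUSP4, DUSP6 and DUSP8 lie below 0 in all 6 single comparisons and DUSP2 above 0, and only DUSP10 in shNT cells with LPS is filled among the single lines.

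Other genes of the pathway were called with CO2 as well, averaged over lines. They are to be set against 17.4% of all genes without LPS (8.67% higher and 8.72% lower) and 29.3% with LPS (15.3% lower). With LPS 2479 of the 17720 genes tested were called higher. The lists are short, and nothing is read from counts near these shares. Without LPS, 1 of the 14 ERK early and target genes was higher and 6 were lower at 10% CO2, among them FOSB (log2 fold change -0.78), IER3 (-0.75) and PHLDA1 (-0.67). With LPS 1 was higher and 5 were lower, among them FOSB (-0.61), ETV5 (-0.56) and ETV4 (-0.41). Of 13 kinases above the MAP kinase kinases, 0 were higher and 3 lower without LPS (MAP3K2, MAP3K3 and ARAF). With LPS 3 were higher and 4 lower, with MAP3K8 (0.99, SE 0.175, adjusted p = 0.000123) and MAP3K5 (ASK1, 0.45) higher and MAP3K3 lower (-0.42).

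Of 10 kinases downstream, RPS6KA2 was higher (0.33, adjusted p = 0.0041) and MKNK1 lower (-0.15, 0.0465) without LPS. With LPS 6 were lower and 0 higher, among them RPS6KA5 (MSK1) at -0.51 and MAPKAPK2 (MK2) at -0.30. Of 9 MAP kinases 1 was higher without LPS, MAPK14 (0.30, adjusted p = 0.000381), and 3 were lower, among them MAPK13 (-0.31) and MAPK7 (-0.30). With LPS 4 were lower and 0 higher, among them MAPK7 (-0.32), MAPK13 (-0.31) and MAPK3 (ERK1, -0.26). Of 7 MAP kinase kinases 2 were lower without LPS (MAP2K7 and MAP2K4) and 3 with it (MAP2K6, MAP2K7 and MAP2K2). The atypical phosphatase DUSP19 was higher without LPS (0.47) and with it (0.78), and DUSP12 and DUSP14 were lower with LPS (-0.30 and -0.18). Of 4 tested tyrosine or serine/threonine phosphatases, PPM1A was lower without and with LPS (-0.20 and -0.18) and PPM1D higher with LPS (0.30). Of 7 Sprouty and SPRED genes, SPRED2 was lower without LPS (-0.30), and with LPS edgeR called 0, with 1 at an unadjusted p under 0.05.

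Comparing each knockdown line with shNT cells in the same state, 20 of 72 tests of a member were called, 18 higher and 2 lower in the knockdown line. The shNT libraries are shared between the comparisons with both lines. In shNR4A2 cells 3 of 9 were called at 5% CO2 (5.69% of all genes, 3.22% higher), 3 at 10% CO2 (7.95%, 4.55% higher), 1 at 5% CO2 with LPS (6.21%, 3.84% higher) and 4 at 10% CO2 with LPS (18.9%, 9.29% higher), all higher. In shNR4A3 cells 1 was higher at 5% CO2 (6.19%, 3.36% higher), 1 higher and 1 lower at 10% CO2 (6.85%, 3.49% higher and 3.35% lower), 2 higher at 5% CO2 with LPS (5.41%, 3.24% higher), and 3 higher and 1 lower at 10% CO2 with LPS (14.5%, 7.3% higher and 7.21% lower). In the same order of states, groups did not overlap for 4, 5, 3 and 4 members in shNR4A2 cells (24.9%, 25.4%, 26.2% and 36.4% of all genes) and for 3, 4, 3 and 4 in shNR4A3 cells (24%, 23.8%, 25.7% and 33.2%). The members' median log2 fold change was 0.35 to 0.39 in shNR4A2 cells and -0.12 to 0.44 in shNR4A3 cells, against -0.007 to 0.003 over all genes.

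DUSP5 was called most often, in 6 of 8 comparisons, with no overlap of libraries in any of the 8. In shNR4A2 cells it was at 4.06, 3.39 and 3.95 RPKM at 5% CO2 against 2.16, 2.41 and 2.02 RPKM in shNT cells (1.74-fold, adjusted p = 0.00947). At 10% CO2 with LPS it was at 6.6, 6.56 and 5.82 RPKM against 2.65, 3.22 and 3.04 RPKM (2.12-fold, adjusted p = 7.23e-05). In shNR4A3 cells it was higher with LPS, 1.7-fold at 5% CO2 (adjusted p = 0.0046) and 1.89-fold at 10% CO2 (0.000635), and without LPS it was at 1.4-fold (0.0882) and 1.36-fold (0.0608). The fit of all 36 libraries also called DUSP5 higher in shNR4A3 cells without LPS, at 5% CO2 (log2 fold change 0.48, adjusted p = 0.0188) and 10% CO2 (0.45, 0.0255). Its call in shNR4A2 cells at 10% CO2 (log2 fold change 0.56, adjusted p = 0.0383) was lost without any of 5 of the 6 libraries (0.46 to 0.57), shNT replicates 1, 2 and 3 and shNR4A2 replicates 1 and 2. That at 5% CO2 was lost without shNT replicate 3 (0.74, adjusted p = 0.0549).

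DUSP10 was higher in both lines without LPS. In shNR4A2 cells it was at 12.9, 11.1 and 10.7 RPKM at 5% CO2 (1.68-fold, adjusted p = 0.00409) and in shNR4A3 cells at 12.4, 12.4 and 13.5 RPKM (1.85-fold, adjusted p = 0.000118), against 7.76, 6.41 and 6.54 RPKM in shNT cells, with no overlap. At 10% CO2 it was 1.6-fold and 1.62-fold higher. With LPS, with the filter and without a block, it was called only in shNR4A3 cells at 10% CO2 (1.36-fold, adjusted p = 0.0213), and that call was lost without shNT replicate 2 (log2 fold change 0.36, adjusted p = 0.0725) or 3 (0.41, 0.103), or shNR4A3 replicate 1 (0.42, 0.0668) or 3 (0.38, 0.0801), and in the fit of all 36 libraries (0.44, 0.0649). At 5% CO2 with LPS it was at 1.28-fold in shNR4A3 cells with no overlap (adjusted p = 0.104), and there, where the replicate numbers paired the libraries, it was called with the replicate number as a block (log2 fold change 0.36, adjusted p = 0.00176). With no filter it was also called there (0.33, adjusted p = 0.041). With LPS in shNR4A2 cells it was at 1.14-fold and 1.03-fold (adjusted p 0.621 and 0.89).

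DUSP4 was higher in shNR4A2 cells without LPS, at 3, 3.02 and 3.5 RPKM against 2.57, 1.49 and 1.55 RPKM at 5% CO2 (1.7-fold, adjusted p = 0.0345) and 2.05-fold at 10% CO2 (0.0242). Leaving out shNT replicate 2 or 3 or shNR4A2 replicate 1 or 3 lost the first of these calls (log2 fold change 0.63 to 0.80, adjusted p 0.0569 to 0.139), as did the fit of all 36 libraries (0.76, 0.12), and leaving out replicate 3 of either line lost the second (0.76, 0.0667 and 1.04, 0.17). With LPS the DUSP4 means in shNR4A2 cells were also above those in shNT cells. They were 6.15 against 3.8 RPKM at 5% CO2 and 5.47 against 3.21 RPKM at 10% CO2, and neither was called in the main edgeR fit. At 10% CO2 with LPS DESeq2 called DUSP4 higher in shNR4A2 cells (0.77, adjusted p = 0.00198) and in shNR4A3 cells (0.52, 0.0312). DUSP1 was higher in shNR4A2 cells with LPS at 10% CO2, at 21.8, 15.4 and 18.7 RPKM against 12.9, 10.5 and 9.94 RPKM (1.67-fold, adjusted p = 0.00228). At 5% CO2 with LPS it was at 28.3, 21 and 18.7 RPKM against 16.9, 13.6 and 9.42 RPKM, with no overlap (1.71-fold, adjusted p = 0.0797), and this passed the threshold without shNT replicate 1 (log2 fold change 0.97, adjusted p = 0.0487). It also passed with DESeq2 (0.775, adjusted p = 0.00763), in the fit of all 36 libraries (0.77, 0.0128) and with no filter (0.76, 1.77e-07). In 7 of 12 alternatives it was not called.

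DUSP6 was also higher in shNR4A2 cells with LPS at 10% CO2, at 17.6, 10.1 and 12.8 RPKM against 7.56, 5.57 and 6.48 RPKM (2.05-fold, adjusted p = 0.0133), and at 5% CO2 it was at 25, 13.2 and 14.3 RPKM against 10.9, 7.05 and 6.3 RPKM (2.18-fold, adjusted p = 0.0879, and 0.0485 without shNT replicate 1). At 5% CO2 DESeq2 (adjusted p = 0.000315) and the fit of all 36 libraries (0.031) also called it, while 8 of 12 alternatives did not. DUSP7 was 1.25-fold higher at 10% CO2 with LPS (adjusted p = 0.0138), a call lost without replicate 2 of either line (log2 fold change 0.30, adjusted p = 0.0582, and 0.28, 0.0527) and in the fit of all 36 libraries (0.32, 0.103). At 10% CO2 without LPS its mean was 21.1 RPKM in shNR4A2 cells against 16.3 RPKM in shNT cells. There it was not called in the main fit but was called in 6 of 12 alternatives, among them DESeq2 (0.37, adjusted p = 0.0243).

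DUSP2 was higher in shNR4A3 cells with LPS, 1.56-fold at 5% CO2 (adjusted p = 0.0368) and 1.8-fold at 10% CO2 (0.000498). The first was lost with any of 5 of the 6 libraries left out, all but shNT replicate 2 (log2 fold change 0.54 to 0.71, adjusted p 0.0539 to 0.122), and with scaling by library size alone (0.59, 0.075). DUSP16 was the member called lower. In shNR4A3 cells at 10% CO2 it was at 0.683, 0.608 and 0.857 RPKM against 1.58, 1.08 and 1.24 RPKM in shNT cells (0.548-fold, adjusted p = 0.00728). With LPS at 10% CO2 it was at 0.769-fold (adjusted p = 0.0283), which was lost without shNT replicate 1 or 3 or shNR4A3 replicate 2 or 3 (log2 fold change -0.38 to -0.30, adjusted p 0.0948 to 0.115) and in the fit of all 36 libraries (-0.38, 0.161). The first of these states is the one in which the fall of NR4A3 was not detectable. DUSP8 had adjusted p of 0.12 to 0.775 in the 8 comparisons.

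**Figure D4:**
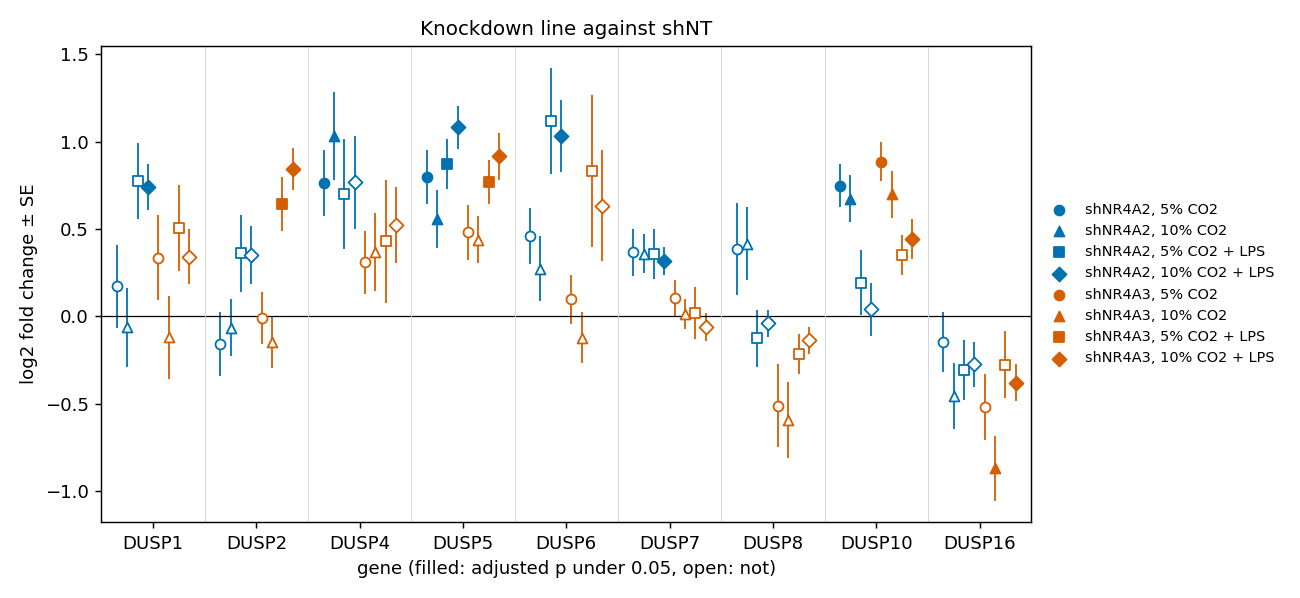
Log2 fold change of each knockdown line against shNT cells (y axis, bars are SE from edgeR) of the 9 genes in 4 states (shape) for shNR4A2 (blue) and shNR4A3 (orange), filled where the adjusted p was under 0.05. DUSP5 lies above 0 in all 8 comparisons (0.44 to 1.08), and DUSP16 lies below 0 in all 8 (-0.87 to -0.15).

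Replicate numbers went with the level of some members. DUSP6 was highest in replicate 1 in 12 of 12 conditions and lowest in replicate 2 in 9. DUSP16 was highest in replicate 1 and lowest in replicate 2 in 10 of 12 conditions each, DUSP2 was highest in replicate 2 in 10, and DUSP4 was lowest in replicate 2 in 10. In the comparisons with shNT cells in which the numbers paired the libraries, the fit with the replicate number as a block called 5 of 9 rather than 3 in shNR4A2 cells at 5% CO2, adding DUSP6 (log2 fold change 0.47, adjusted p = 0.000154) and DUSP7 (0.35, 0.00206). It called 6 rather than 1 in shNR4A2 cells at 5% CO2 with LPS, adding DUSP6 (1.11, adjusted p = 9.02e-19), DUSP1 (0.79, 2.65e-11), DUSP2 (0.35, 0.00567), DUSP7 (0.34, 0.000727) and DUSP16 (-0.32, 0.00114). It called 7 rather than 2 in shNR4A3 cells at 5% CO2 with LPS, adding DUSP1 (0.515, adjusted p = 0.00147), DUSP4 (0.47, 0.00425), DUSP6 (0.75, 0.00839), DUSP16 (-0.29, 0.0175) and DUSP10 with the value given above. Over all 17720 genes, in the same order, the block raised the calls from 1008 to 3803, 1101 to 4369 and 958 to 3312. The rise in calls was thus not particular to the members. The study describes the replicates as individual experiments, and whether libraries with the same number come from the same experiment is not given in the sources used here.

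The genes most like each member over the 12 condition means of log2 CPM were found as a description, with Pearson's r over 12 points that share libraries and, for most, the contrast of LPS. TNF and JUN were most like DUSP8 (both r = 0.997), EIF1 and RHOH were most like DUSP1 (both 0.996), and BTG3 (0.995) and HINT3 (0.994) were most like DUSP16. DUSP7, the member that fell, was most like SH3BP5L (0.992) and IL16 (0.991). PIGV (0.983) and ZNF519 (0.976) were nearest to DUSP2, SH2B3 and ALG13 (both 0.98) to DUSP4, and KLF2 (0.971) and SUMO3 (0.954) to DUSP10. DUSP5 had LINC01588 (0.975) and TMSB4XP8 (0.967), and DUSP6, with the lowest values, STOX2 (0.932) and MYH9 (0.929).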

How the data were processed

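RNA of 36 libraries was selected by polyA and sequenced as paired reads. Trimming (Trimmomatic 0.36), alignment to GRCh38 (STAR 2.5.2b) and counting per gene (featureCounts in Subread 1.5.2) were done by the authors, who deposited 1 file of raw counts for each library. The annotation release and the strand setting are not given in the sources used here, so reads of overlapping genes on opposite strands could not be told apart. DUSP1, DUSP6, DUSP8 and DUSP16 each overlap 1 such gene, with median counts of 0, 15, 9 and 0. Symbols were matched by Ensembl ID for 56410 of 57500 genes (98.1%).

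Conditions came from the sample labels. Libraries of a condition differed by more than sampling noise (chi-square per degree of freedom 6.62 to 29.6), and all were kept. Genes were filtered with filterByExpr (minimum count 10, minimum total 15), scaled with TMM factors and tested with the quasi-likelihood F test of edgeR 4.0.16 under R 4.3.3, robust, with Benjamini-Hochberg adjustment over 17720 genes. A gene is called where its adjusted p is under 0.05. Pairwise comparisons used the libraries of their 2 conditions. CO2 effects averaged over lines used all 36 libraries, LPS by line 24 and CO2 by line 12. Standard errors were derived from the log2 fold change and the square root of its F statistic. The study's own test was DESeq2's Wald test, run here as an alternative (DESeq2 1.42.0). RPKM used the gene lengths in the files and TMM factors over 36 libraries. It serves to compare levels between genes, and depth limits its precision for genes with few counts.

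As alternatives the fits were repeated with DESeq2, without the filter, with RLE size factors, with scaling by library size only, with the replicate number as a block, on all 36 libraries at once and with each library left out. Replicate numbers were taken to pair libraries where all 3 same-number correlations of deviations from the condition means, over all genes tested, were over 0.1. This held for 7 of 20 pairwise comparisons, namely LPS in shNR4A2 cells at 5% CO2 and in shNR4A3 cells at 5% and 10% CO2, CO2 in shNR4A2 cells without LPS, and shNR4A2 against shNT cells at 5% CO2 and, like shNR4A3 against shNT, at 5% CO2 with LPS. Over genes with a mean of at least 10 CPM it also held in others, such as shNR4A3 against shNT cells at 10% CO2 with LPS (0.463, 0.424 and 0.423). It did not hold in all, as for CO2 in shNT cells with LPS (0.617, -0.222 and -0.097).

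On simulated counts with 200 changed genes, the test recovered 65% of 1.5-fold and 87% of 2-fold changes for LPS in shNT cells at 5% CO2 (8.98% false calls), 59% and 90% for CO2 in shNT cells without LPS (6.29%), 48% and 89% for shNR4A2 against shNT at 5% CO2 (12.2%), and 84% and 99% for CO2 averaged over lines (3.68%). A single simulated data set was drawn per comparison, so the shares of false calls are rough. The real comparison of LPS in shNT cells at 5% CO2 called 4052 genes, far more than the 200 changed in the simulation. Where false calls were above 5%, calls near the threshold may be less certain than the adjusted p states.

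Named genes were all 9 members, NR4A2 and NR4A3, up to 3 called genes per related list with the largest change for LPS in shNT cells at 5% CO2 and for CO2 averaged over lines, and the 2 genes most like each member among genes with a mean of at least 1 CPM (log2 CPM, prior count 2). Replicate order, DUSP8P5 and the promoters shown were chosen after values were seen. The members and all lists were chosen with earlier results of these data known. Promoter windows are from RefSeq (GRCh38.p14), with entries for 7 of 9 members. Of the 12 listed markers of other cell types, 2 are not reported here, so the statement on their levels covers the other 10 only.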

Additional observations from a re-analysis of the deposited data

Results flagged for a closer look

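The response of DUSP2 to LPS differed between lines by a test of the difference itself. Its log2 fold change with LPS, averaged over 5% and 10% CO2, was larger by 0.82 in shNR4A3 than in shNT cells (SE 0.15, edgeR adjusted p = 0.00944). It rose 3.37-fold and 3.38-fold in shNR4A3 cells at 5% and 10% CO2, and 2.15-fold and 1.7-fold in shNT cells. The interaction was called in every alternative tried. NR4A3 itself was lower in shNR4A3 cells with LPS at both CO2 levels (log2 fold change -0.82 and -1.11).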

How the results depend on the processing

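Counts of members called are given out of 9. Brackets with 'against' give all genes called under that setting against those of the main fit described above. No filter and DESeq2 started from more genes than the main fit. Among the 6 comparisons of LPS the count stayed at 7 or 8 with each library left out. For CO2 within lines, no filter gave 1 in shNT cells without LPS (418 against 109). In shNT cells with LPS, 1 fit of all 36 libraries gave 0 (1289 against 1452), with 0 to 2 for a library left out. In shNR4A2 cells the replicate block gave 1 without LPS (361 against 2). With LPS the block, no filter and all 36 libraries gave 1 each (619, 1112 and 1009 against 35), with 0 to 1 for a library left out. In shNR4A3 cells without LPS DESeq2 gave 1, no filter 3 and the block 3 (550, 823 and 1073 against 200), with 0 to 1 for a library left out. With LPS DESeq2 gave 1 and no filter 2 (885 and 1402 against 378). For shNR4A2 against shNT the block gave 5 at 5% CO2 (3803 against 1008), with 1 to 4 for a library left out. The range at 10% CO2 was 2 to 2. At 5% CO2 with LPS DESeq2 and all 36 libraries gave 3 (1382 and 2212 against 1101). No filter gave 2 (1834 against 1101) and the block 6 (4369 against 1101). The range there was 1 to 4, and at 10% CO2 with LPS it was 3 to 6. For shNR4A3 against shNT all 36 libraries and the block gave 2 at 5% CO2 (1168 and 2299 against 1097, range 1 to 2). The block gave 4 at 10% CO2 (2394 against 1213). At 5% CO2 with LPS library size only gave 1, no filter 4 and the block 7 (929, 1737 and 3312 against 958, range 1 to 2). At 10% CO2 with LPS all 36 libraries gave 2 and the block 7 (2264 and 4409 against 2572, range 2 to 5). For CO2 averaged over lines, no filter gave 3 without LPS (2405 against 3082, range 2 to 5). DESeq2 and RLE size factors gave 1 with LPS (5257 and 5166 against 5199, range 1 to 2). Library size only gave 1 for CO2 by LPS (384 against 353, range 0 to 1). For LPS by line in shNR4A2 cells no filter gave 2 (106 against 40) and the block 3 (DUSP1, DUSP6 and DUSP10, 88 against 40). The numbers did not pair the libraries there by the rule over all genes (0.182, 0.053 and 0.072). Over genes with a mean of at least 10 CPM the correlations were 0.512, 0.182 and 0.159. Outside the pairings named with the processing, the numbers did not meet the pairing rule over all genes tested. Among genes with higher counts some comparisons did, as given there. The cause of these moves was not tested, except that fewer libraries or more genes tested change the adjustment itself. No called value changed sign under any alternative. Of the members' log2 fold changes, 1458 under other settings stayed on the same side of the threshold, 69 gained a call and 12 lost one. With a library left out these were 2820, 22 and 74. Low counts limit DUSP1, DUSP8 and DUSP16 without LPS, at 37 to 199 counts per library.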
